A study of Mus musculus with 8 samples.

Results

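The genes described here are those that a high-fat diet moved in the same direction after both 12 and 24 weeks of feeding, in stromal cells cultured from the subcutaneous fat of mice. Of 29584 genes or unnamed transcripts tested, 3303 were chosen, 1489 of them raised and 1814 lowered by the diet at both times. The rule took the difference between high-fat diet and chow at each time, averaged both into a main effect of diet over 8 arrays (4 against 4), and kept the genes whose difference passed the test at each time with 1 sign. The test was limma's, fitted over all genes with Benjamini-Hochberg adjustment, and a gene is said to be called when its adjusted p was under 0.05. Calls of both signs at both times are given beside the shared ones, so the choice of members uses the diet contrasts and their sizes below are a description of them.

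All mice were male C57BL/6, 6 weeks old when the diets began. They received control chow or a diet with 60% fat. Feeding lasted 12 weeks (groups C12 on chow and HF12 on the fat diet) or 24 weeks (groups C24 and HF24), and each group has 2 one-colour Agilent arrays. The sample titles call the 12-week groups young and the 24-week groups old. Feeding time and age of the mice cannot be told apart. Cells freed from abdominal subcutaneous fat with collagenase were grown on plastic, passaged, and are called mesenchymal stem cells of adipose tissue in the labels, which name no sort. Whether both arrays of a group hold separate animals or cultures is not labelled, so the p-values rest on differences between arrays that may be technical repeats. Their number limits the precision.

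Adipose stromal cells are the fibroblast-like cells of fat that hold the progenitors of adipocytes, secrete matrix and growth factors, and attach to plastic. Fat also holds macrophages, which attach to plastic too and which are known to gather in fat during diet-induced obesity. Expression of adipocyte genes, matrix proteoglycans, interferon-induced genes and sterol synthesis genes in cultured stroma is known to follow differentiation state, cytokines in the culture and sterol supply.

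All 24 tested stromal and adipose progenitor markers were well above background in every group. A marker was tested only when both arrays of some group were well above background. All 15 tested endothelial, 11 pericyte and 15 smooth muscle genes were well above background in every group as well. The leukocyte antigen Ptprc (CD45) was well above background on all 8 arrays too, so the cultures were not free of leukocyte RNA. Arrays of 1 group correlated at 0.995 to 0.998 over all genes and arrays of different groups at 0.955 to 0.985. Between 57.51% and 67.16% of probes were well above background per array, lowest in HF24. All 8 arrays lay on 1 slide, with the 12-week arrays in row 1, the 24-week arrays in row 2, chow in columns 1 and 2 and high-fat diet in columns 3 and 4. Diet and slide column cannot be told apart, nor can feeding time and slide row, and each diet difference below was taken within 1 row.

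At 12 weeks 13.6% of all genes were called higher and 17.4% lower with the diet, and at 24 weeks 15.1% and 19%. Of 9167 genes called at 12 weeks and 10076 called at 24 weeks, 4484 were called at both times. The shared genes were 36.0% of the calls at 12 weeks and 32.8% of the calls at 24 weeks. Shared higher calls took 5.03% of all genes tested, shared lower calls 6.13% and calls in opposite directions 3.99%, which is 1181 genes. The diet contrasts of the 2 times share no arrays. Across all genes their differences correlated at r = 0.27, given as a description because genes are not independent replicates. The main effect of diet called 5345 genes higher (18.1%) and 6999 lower (23.7%), but only 26.8% of those 12344 genes were shared. Another 7612 were called at 1 time only, 1066 at neither and 363 at both with opposite signs. A main-effect call therefore did not show that a gene moved the same way at both times. The counts of shared genes depended on single arrays. The shared higher count was 892 when HF24 replicate 1 was left out, 932 when HF24 replicate 2 was and 944 when C24 replicate 1 was. The shared lower count was 1044 when HF12 replicate 1 was left out, 1157 when HF12 replicate 2 was and 1171 when C12 replicate 1 was. The count in opposite directions fell to 637 without HF12 replicate 1, 680 without HF12 replicate 2 and 764 without HF24 replicate 1.

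**Figure D1:**
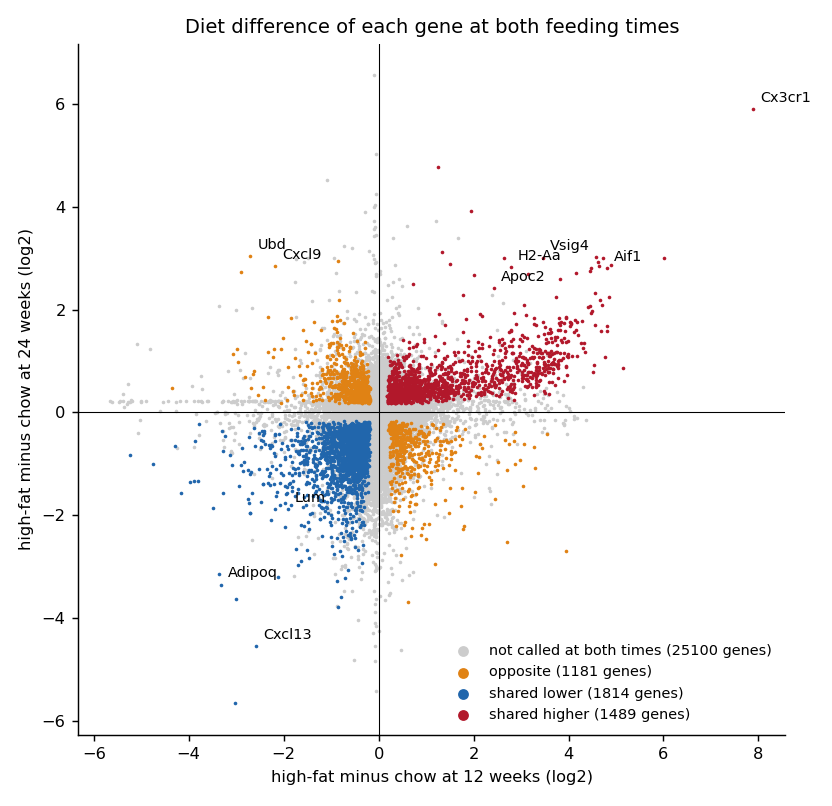
Each point is 1 of 29584 genes, with its difference between high-fat diet and chow at 12 weeks (horizontal, log2) and at 24 weeks (vertical, log2). Shared higher genes (1489) fill the upper right and spread further along the 12-week axis, shared lower genes (1814) fill the lower left, and genes called in opposite directions (1181) fill the other quadrants.

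Shared higher genes moved more at 12 than at 24 weeks, and shared lower genes somewhat more at 24 weeks. The median log2 difference of the shared higher genes was 0.85 at 12 weeks and 0.50 at 24 weeks, and that of the shared lower genes -0.58 and -0.73, beside -0.03 and 0.02 over all genes. A difference of at least 2-fold at both times was reached by 207 higher and 170 lower genes. The interaction of diet and time was called in 790 of the shared higher genes (53.1%), 729 of them with the larger difference at 12 weeks, and in 715 of the shared lower genes (39.4%), 461 of them with the larger difference at 24 weeks. Over all genes 29.9% had an interaction call. Together, 1505 shared genes differed in size between the times, a count of 923 without HF12 replicate 1 and 963 without HF12 replicate 2. The main effect of time, 24 minus 12 weeks averaged over both diets, was tested too. It called 1263 of 1814 shared lower genes lower (69.6%), against 27.7% of all genes. It called 802 of 1489 shared higher genes higher (53.9%), against 27.1% of all genes. The median level, which is log2 intensity minus the array's 75th percentile, was 0.34 for shared higher genes, -1.18 for shared lower genes and -1.13 for all genes. In 1110 shared higher genes all 4 high-fat arrays lay above all 4 chow arrays, and in 963 shared lower genes all 4 lay below. Over all genes those shares were 7.61% and 7.48%. The members were chosen by these differences on the same arrays, so these counts only describe the choice. Just inside the threshold were H3f3b (log2 differences of 0.19 at 12 weeks and 0.20 at 24 weeks) and Gng12 (-0.47 and -0.29), and just outside it Glis1 (-0.22 and -0.66) and Cdc42ep3 (0.35 and 0.20).

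Most macrophage markers rose at both times. In what follows, paired values are log2 differences at 12 and at 24 weeks, high-fat diet minus chow. Of 22 tested macrophage markers, 15 were shared higher and 1, Lyve1, a hyaluronan receptor of some resident macrophages, was shared lower (-1.82 and -1.45), against a background of 5.03% and 6.13%. The list had median log2 differences of 3.46 at 12 weeks and 0.98 at 24 weeks. Aif1, an actin-binding protein of macrophages and microglia, had levels of -2.04 and -2.0 in C12, 2.78 and 2.81 in HF12, 0.67 and 0.57 in C24, and 3.42 and 3.42 in HF24. All 4 high-fat arrays lay above all 4 chow arrays, and the diet difference was 4.81 at 12 weeks and 2.80 at 24 weeks (SE 0.06, n = 2 against 2, limma adjusted p = 1.71e-06 and 3.32e-05).

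Cx3cr1, the fractalkine receptor of monocytes and tissue macrophages, was not well above background on any chow array and was measured on all high-fat arrays. Its levels were -7.46 and -7.60 in C12, 0.30 and 0.41 in HF12, -6.25 and -6.28 in C24, and -0.43 and -0.31 in HF24. Against the dimmest signal of a probe well above background, taken per array or the probe's own signal where that was higher, Cx3cr1 was at least 64.2-fold higher at 12 weeks and at least 26-fold higher at 24 weeks. A second probe of Cx3cr1 was shared higher as well. Vsig4, a complement receptor of resident macrophages, rose at least 3.68-fold at 12 weeks, where its chow arrays were not well above background, and by 3.01 (log2) at 24 weeks.

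Fcrls, an Fc receptor-like scavenger receptor, had levels of -4.04 and -3.65 in C12, 0.90 and 0.84 in HF12, -3.33 and -3.16 in C24, and -0.22 and -0.27 in HF24. All 4 high-fat arrays lay above all 4 chow arrays. Cd72, an inhibitory lectin-like receptor of B cells and some macrophages, rose by 4.17 and 2.71. Ptprc had levels of -0.79 and -1.02 in C12 and 2.85 and 2.89 in HF12, but 1.08 and 0.96 in C24 and 1.99 and 2.04 in HF24. Its rise was 3.78 at 12 weeks and 0.99 at 24 weeks. The chow arrays at 24 weeks lay above those at 12 weeks and the high-fat arrays at 24 weeks below those at 12 weeks.

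All 20 tested members of the Fc receptor and myeloid signalling list were shared higher, against 5.03% of all genes. The list holds receptors for antibody Fc parts, their signalling adaptors, and the kinases and phosphatases that act on them. The median differences of the list were 3.32 and 0.94. Fcgr1, the high-affinity receptor for IgG, had levels of -3.05 and -3.01 in C12, 1.45 and 1.44 in HF12, -0.83 and -0.76 in C24, and 1.16 and 1.1 in HF24. It rose by 4.47 and 1.92, and HF24 stayed just under HF12. Ptpn6, the phosphatase SHP-1 that restrains these receptors, rose by 3.90 and 1.44, so the inhibitory arm of the list rose too. Trem2, a lipid-sensing receptor of the same list, rose by 3.26 and 1.06. Counts without 1 array ran from 19 to 20.

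The letters GAGGAAGT, a core of the binding site of PU.1, a transcription factor of myeloid cells, were searched on both strands in the 250 bases before the RefSeq start of each gene (RefSeq tables of build GRCm38.p6, which are not complete). Of 20 genes of the Fc receptor list, 16 had such a window and 4 of those held the core. It was in 1 of 10 shared higher macrophage markers with a window and in 0 of 6 shared higher MHC class II genes. Over all shared higher genes with a window the share was 5.66%, over shared lower genes 2.12%, and over all tested genes 2.82%. These shares are a description without a test, and a match is not a bound site. Fcgr4 and Vav1 are shown as members of that list that rose at both times, with the core in capitals. Windows are printed on the strand of the gene, so a match on the other strand reads ACTTCCTC, as in Fcgr4. The windows are those of Fcgr4 (chr1:171018676-171018925, plus strand) and Vav1 (chr17:57278850-57279099, plus strand).
Fcgr4: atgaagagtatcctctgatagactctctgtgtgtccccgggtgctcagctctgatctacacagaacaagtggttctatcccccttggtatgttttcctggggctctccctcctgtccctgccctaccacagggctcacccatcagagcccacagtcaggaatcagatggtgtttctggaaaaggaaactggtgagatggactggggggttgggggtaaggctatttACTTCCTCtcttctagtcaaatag
Vav1: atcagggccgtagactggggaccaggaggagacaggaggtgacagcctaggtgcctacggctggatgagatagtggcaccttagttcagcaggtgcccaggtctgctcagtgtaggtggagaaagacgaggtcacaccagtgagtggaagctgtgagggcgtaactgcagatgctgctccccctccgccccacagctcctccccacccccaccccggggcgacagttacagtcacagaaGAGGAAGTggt

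Genes for membrane and cytosolic subunits of the phagocyte NADPH oxidase, which makes superoxide, rose at both times. Of 9 tested genes 6 were shared higher, against 5.03% of all genes. Cybb, the catalytic membrane subunit, rose by 2.63 and 0.64, a call at both times that was lost without C24 replicate 2 and without HF24 replicate 1 (largest adjusted p 0.0548). A second probe of Cybb was shared higher too (3.04 and 0.74). Its partner Cyba rose by 1.45 and 0.49. The cytosolic subunit Ncf1 rose by 4.69 and 1.59, and Rac2, the GTPase of the complex, by 3.60 and 0.58. Nox4, the oxidase of stromal cells, moved in opposite directions (-0.57 and 0.37).

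Complement genes moved both ways. Of 20 tested genes 7 were shared higher and 7 shared lower, against 5.03% and 6.13% of all genes. Those that rose were the 3 chains of C1q, the anaphylatoxin receptors C5ar1 and C3ar1, properdin (Cfp) and the regulator Cd59a. C1qa had levels of -0.75 and -0.56 in C12, 3.82 and 3.77 in HF12, 2.43 and 2.59 in C24, and 4.57 and 4.57 in HF24. C1qb and C1qc rose by 4.28 and 1.77 and by 3.79 and 1.84, and C5ar1 by 3.83 and 1.40. Those that fell were the proteases C1ra, C1s1 and C2, the central component C3, factor B (Cfb), factor D (Cfd) and the regulator Cd55. C3 fell by 2.18 at 12 weeks and by 0.85 at 24 weeks. Without 1 array each count was 6 or 7.

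Other phagocyte lists were called in part, beside 5.03% of all genes that were shared higher. Of 18 lipid-associated macrophage genes 7 were shared higher, among them Spp1 (osteopontin, 2.77 and 0.68) and Itgax (CD11c, 3.18 and 1.23). The count was 4 without C24 replicate 1 and 4 without HF24 replicate 1, and a second probe of Itgax was called at 12 weeks only. Apoe, a lipid carrier of the same list, moved in opposite directions (-1.01 and 1.36). Of 22 Toll-like receptor and inflammasome genes 9 were shared higher, with Cd14, the lipopolysaccharide co-receptor, at 2.97 and 1.42, Tlr13, a sensor of bacterial ribosomal RNA, at 3.14 and 0.96, and Casp1, the inflammasome protease, at 1.55 and 0.64. Of 25 lysosome genes 5 were shared higher, all of them hydrolases, and the count was 3 without C24 replicate 1 and 3 without HF24 replicate 1.

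The summed linear level of the 22 tested macrophage markers, in units of the array's 75th percentile, was 74.5 to 75.4 in C12, 397 to 398 in HF12, 152 to 159 in C24 and 307 to 313 in HF24. In C12, 18 of the 22 were well above background on both arrays, and in both high-fat groups all 22 were. The order of the groups is that of most myeloid genes above. In bulk RNA, more cells of a type and more RNA per cell cannot be told apart. The lymphocyte list had 19 tested members, summed to 138 in C12, 172 to 183 in HF12, 171 to 177 in C24 and 205 to 210 in HF24. The T and B cell genes Cd3g, Cd8a, Trac and Ms4a1 were not tested, since no kept probe carried their symbols. The part of leukocyte RNA in the shared differences was not tested.

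**Figure D2:**
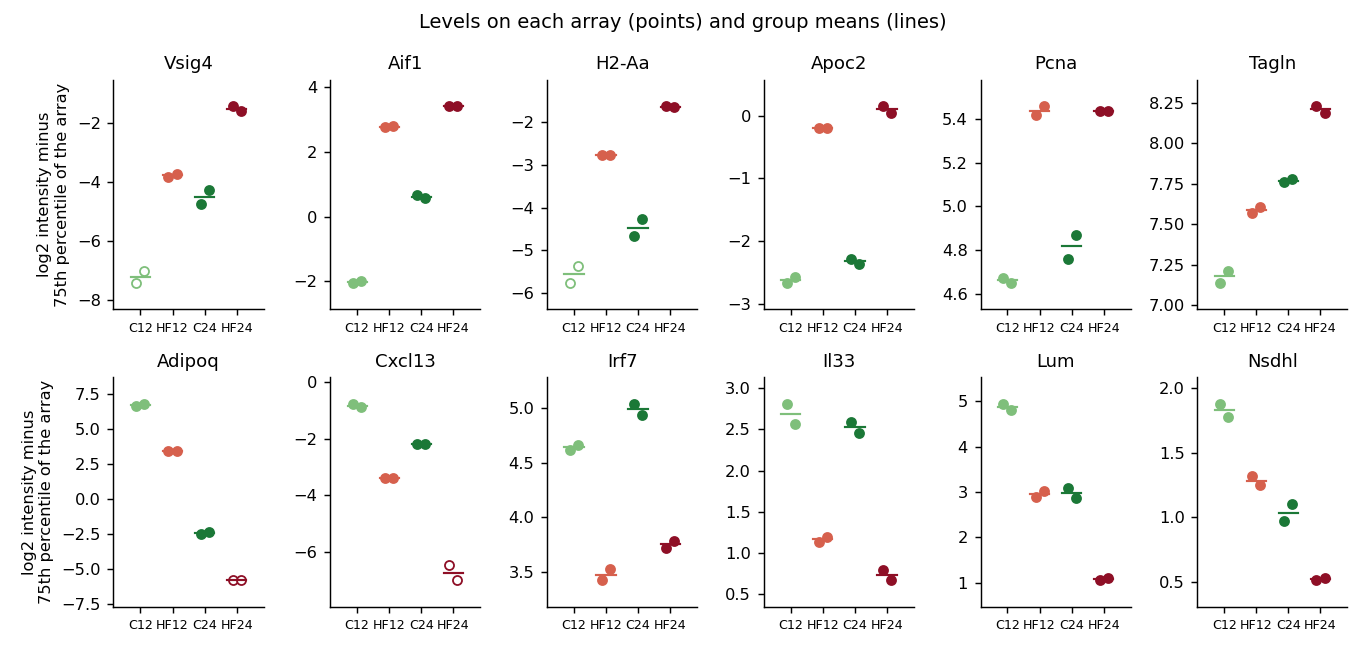
Levels (log2 intensity minus the array's 75th percentile) of 12 shared genes on each of 8 arrays, as points, with the group mean as a line and each panel on its own axis. Filled points mark groups where both arrays were well above background; in the upper row both high-fat groups lie above the chow group of the same time, and in the lower row below it.

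Most genes of antigen presentation on MHC class II, which shows peptides to helper T cells, rose at both times. Of 10 tested genes 9 were shared higher, against 5.03% of all genes. The median differences were 1.34 and 1.32, with counts of 8 or 9 without 1 array. H2-Aa, the alpha chain of I-A, had levels of -5.75 and -5.37 in C12, -2.77 and -2.78 in HF12, -4.67 and -4.27 in C24, and -1.64 and -1.66 in HF24. Only 1 of the C12 arrays was well above background. The differences were 2.78 and 2.82.

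Cd74, the invariant chain that guards the class II groove, rose by 3.15 and 2.69, with levels of -3.22 and -2.85 in C12, 0.15 and 0.08 in HF12, -1.97 and -1.79 in C24, and 0.85 and 0.78 in HF24. H2-Ab1, the beta chain of I-A, rose by 2.19 and 1.87, and H2-DMa, which loads the peptide, by 1.25 and 1.22. None of these had an interaction call. H2-Eb1, the beta chain of I-E, rose more at 24 weeks (1.26 and 1.92, interaction adjusted p = 0.0033). Ciita, the transactivator of class II genes, rose by 0.96 at 12 weeks and was shared higher, but was not well above background in C24. Ctss, the protease that trims the invariant chain and is also a macrophage enzyme, rose by 2.89 and 1.03.

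The genes that interferon gamma induces did not share this pattern. Of 21 tested targets and receptors, 15 were called in opposite directions, lower at 12 weeks and higher at 24 weeks, against 3.99% of all genes. Only the receptor chain Ifngr2 was shared higher (0.35 and 0.23), a call kept without C12 replicate 2, lost without each of the other arrays and lost with normexp. Ubd, a ubiquitin-like protein, had levels of -0.74 and -0.94 in C12, -3.54 and -3.54 in HF12, -4.65 and -4.46 in C24, and -1.53 and -1.49 in HF24. The highest chow arrays and the highest high-fat arrays belonged to different times. Its differences were -2.70 and 3.04, those of Cxcl9, a chemokine for T cells, -2.18 and 2.84, and those of Iigp1, an immunity-related GTPase, -2.32 and 1.86. Of 15 MHC class I and immunoproteasome genes 3 were opposite, among them H2-K1, a class I heavy chain (-0.68 and 0.44), 9 were called at 24 weeks only and 1 at 12 weeks only.

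Many genes that type I interferon induces, most of them antiviral, fell at both times. Of 22 tested, 13 were shared lower, against 6.13% of all genes. The median differences were -0.55 and -0.52, with counts of 9 to 11 without 1 array. Irf7, the interferon-induced regulator of the interferon genes, had levels of 4.62 and 4.66 in C12, 3.42 and 3.52 in HF12, 5.04 and 4.94 in C24, and 3.72 and 3.78 in HF24. Both chow groups lay above both high-fat groups, and Irf7 fell by 1.17 and 1.24 (interaction adjusted p = 0.664).

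Usp18, the protease that removes ISG15 from proteins and damps the interferon receptor, fell by 1.2 and 1.28. Ifit1, which binds foreign RNA, had levels of 1.04 and 0.85 in C12, -0.27 and -0.32 in HF12, 1.06 and 1.00 in C24, and -0.75 and -0.61 in HF24. The chow groups of both times lay together, and Ifit1 fell by 1.24 and 1.71. Its neighbour in function Ifit3 fell by 1.08 and 1.38 and Ifi44 by 1.51 and 1.00. The helicase sensors Ddx58, Ifih1 and Dhx58 were shared lower too, by smaller amounts (-0.39 and -0.34, -0.74 and -0.24, -0.23 and -0.30). Rsad2 (viperin) was the 1 member called in opposite directions (0.46 and -1.12), and this call held without C12 replicate 2 but not without any 1 of the other arrays (largest adjusted p 0.181).

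The core of the interferon-stimulated response element, GAAA followed by any pair of bases and again GAAA, was searched on both strands, overlapping matches included, in the same windows of 250 bases. It was in 4 of 10 shared lower type I genes with a window and in 7 of 10 opposite interferon gamma targets with a window, beside 3.26% of all tested genes, 4.11% of shared higher genes and 4.39% of shared lower genes. Isg15, Ifit1 and Ifit3 are shown as genes that fell at both times, and Gbp2 and Igtp as genes that fell at 12 and rose at 24 weeks. They were picked because they hold the core, shown in capitals. A match on the strand opposite to the printed one reads TTTC, any pair of bases and TTTC. The windows are Isg15 (chr4:156200819-156201068, minus strand), Ifit1 (chr19:34640639-34640888, plus strand), Ifit3 (chr19:34583279-34583528, plus strand), Gbp2 (chr3:142620413-142620662, plus strand) and Igtp (chr11:58199306-58199555, plus strand), of GRCm38.p6.
Isg15: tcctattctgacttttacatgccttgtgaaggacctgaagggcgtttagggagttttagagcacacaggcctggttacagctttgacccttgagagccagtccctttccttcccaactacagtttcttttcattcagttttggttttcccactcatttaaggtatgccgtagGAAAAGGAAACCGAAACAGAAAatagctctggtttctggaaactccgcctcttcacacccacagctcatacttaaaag
Ifit1: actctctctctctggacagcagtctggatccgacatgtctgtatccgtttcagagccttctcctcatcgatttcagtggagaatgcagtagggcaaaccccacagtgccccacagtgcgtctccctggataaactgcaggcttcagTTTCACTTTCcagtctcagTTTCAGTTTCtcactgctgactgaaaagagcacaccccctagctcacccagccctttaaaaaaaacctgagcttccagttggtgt
Ifit3: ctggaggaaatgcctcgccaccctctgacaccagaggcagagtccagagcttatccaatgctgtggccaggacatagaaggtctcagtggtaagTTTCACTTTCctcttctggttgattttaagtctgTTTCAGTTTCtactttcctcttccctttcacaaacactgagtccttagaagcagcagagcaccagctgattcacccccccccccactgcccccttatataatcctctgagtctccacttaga
Gbp2: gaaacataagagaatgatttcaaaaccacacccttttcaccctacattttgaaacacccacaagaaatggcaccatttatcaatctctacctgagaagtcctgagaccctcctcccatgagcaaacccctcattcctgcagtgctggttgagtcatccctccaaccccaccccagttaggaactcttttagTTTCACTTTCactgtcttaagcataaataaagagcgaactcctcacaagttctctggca
Igtp: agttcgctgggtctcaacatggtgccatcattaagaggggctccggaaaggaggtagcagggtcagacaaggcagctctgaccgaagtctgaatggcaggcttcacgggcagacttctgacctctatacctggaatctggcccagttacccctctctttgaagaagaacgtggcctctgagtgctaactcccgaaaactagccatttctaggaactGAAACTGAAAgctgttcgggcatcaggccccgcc

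**Figure D3:**
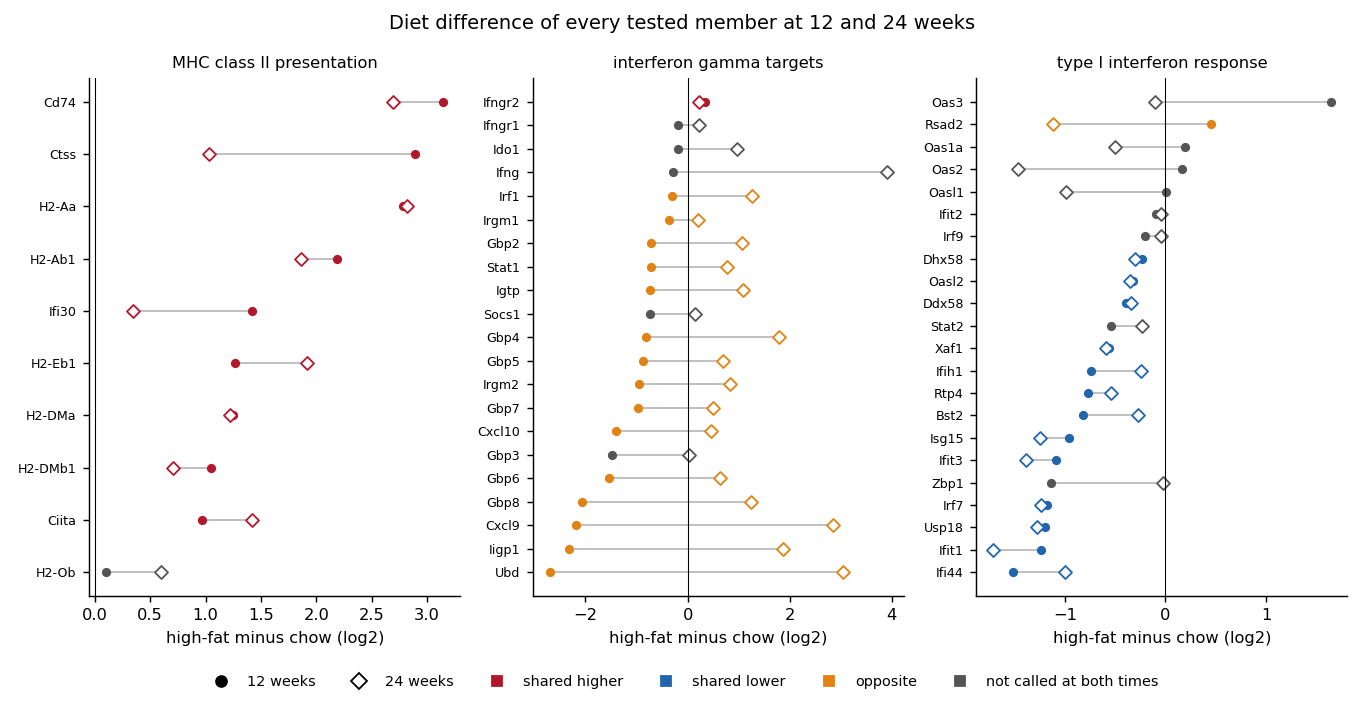
Diet differences (log2, high-fat minus chow) of every tested member of 3 lists at 12 weeks (filled circles) and 24 weeks (open diamonds), coloured by class. MHC class II genes lie to the right of 0 at both times, 15 interferon gamma targets change sign between the times, and 13 type I interferon genes lie to the left at both.

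Genes of the adipocyte fell in part. Of 25 mature adipocyte genes 11 were shared lower and 2 opposite, against 6.13% and 3.99% of all genes. The median differences were -2.44 at 12 weeks and -0.23 at 24 weeks, with shared lower counts of 10 or 11 without 1 array. Adipoq, the hormone adiponectin, had levels of 6.67 and 6.79 in C12, 3.41 and 3.40 in HF12, -2.52 and -2.38 in C24, and -5.83 and -5.77 in HF24. It fell by 3.33 at 12 weeks, and at least 5.25-fold at 24 weeks, where HF24 was not well above background. Both 24-week groups lay below both 12-week groups. Cfd, or adipsin, a complement protease made by adipocytes, fell by 3.02 at 12 weeks and at least 13.8-fold at 24 weeks.

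Plin1, which coats lipid droplets, had levels of 4.35 and 4.40 in C12, 1.07 and 1.12 in HF12, -2.86 and -3.05 in C24, and -4.45 and -4.62 in HF24. Car3, a carbonic anhydrase abundant in fat, fell by 3.81 and 1.33, and Scd1, the stearoyl-CoA desaturase, by 1.52 and 0.66. Slc36a2, an amino acid transporter of fat, fell by 3.37 at 12 weeks and at least 2.61-fold at 24 weeks, and Wfdc21 by 3.01 and at least 7.39-fold, since neither was well above background in HF24. In each of these the chow arrays at 24 weeks lay below the high-fat arrays at 12 weeks.

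Regulators upstream were mostly lower at 12 weeks, and fewer of them at 24 weeks. Of 24 adipogenic transcription factors 21 were called lower at 12 weeks, against 17.4% of all genes, and 0 higher. At 24 weeks 7 were called lower, against 19%, and 4 higher, against 15.1%. By class, 5 were shared lower and 4 opposite, against 6.13% and 3.99% of all genes, and 12 were called at 12 weeks only. The shared count was 2 without C24 replicate 1, 3 without HF12 replicate 1 and 3 without HF24 replicate 1. Pparg, the nuclear receptor that directs adipogenesis, was called in opposite directions (-1.38 and 0.23), and its call at 24 weeks was lost without any 1 of the 4 arrays of C24 and HF24 (largest adjusted p 0.10). Dlk1, a preadipocyte factor that holds back adipogenesis, fell by 0.74 and 1.27. Pnpla2, the main triglyceride lipase, differed by -2.44 and 0.49. Of 27 genes of lipogenesis, lipolysis and beta-oxidation 6 were shared lower, a count of 2 without HF24 replicate 1 and of 3 without HF24 replicate 2 or either C24 array.

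The summed linear level of the 25 adipocyte genes was 1460 to 1470 in C12, 353 to 371 in HF12, 233 to 234 in C24 and 189 to 193 in HF24. All 25 were well above background in C12 and 17 in HF24. The stromal marker list summed to 514 to 530 in C12, 497 to 513 in HF12, 631 to 634 in C24 and 595 to 602 in HF24, and the skeletal muscle list to 557 to 563, 478 to 489, 222 to 225 and 99.1 to 99.3. The part of these cells' RNA in the shared differences was not tested.

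Sterol synthesis genes fell in part, by small amounts at both times. Of 22 genes of cholesterol synthesis and uptake 12 were shared lower and 1, the sterol exporter Abcg1, was shared higher (1.82 and 0.72). Those classes held 6.13% and 5.03% of all genes. The median differences of the list were -0.28 and -0.34. The 12 lay between -0.66 and -0.24 at 12 weeks and between -0.57 and -0.30 at 24 weeks. Nsdhl, which removes methyl groups from sterol precursors, had levels of 1.88 and 1.78 in C12, 1.32 and 1.25 in HF12, 0.97 and 1.1 in C24, and 0.51 and 0.53 in HF24. In each pair of groups the high-fat arrays lay below the chow arrays, and its C24 arrays lay under its HF12 arrays. Nsdhl fell by 0.54 and 0.51, Idi1, the isopentenyl diphosphate isomerase, by 0.65 and 0.57, and Insig1, the sterol-regulated retention protein, by 0.66 and 0.45, all of them with no interaction call. The count of 12 fell to 7 without C24 replicate 1, 6 without HF12 replicate 1, 7 without HF12 replicate 2 and 6 without HF24 replicate 1, and Nsdhl, Idi1 and Insig1 kept their calls throughout. The core TCACNCCAC of a sterol response element was in 1 of 7 of these genes with a window, Hmgcs1, beside 1.26% of all tested genes. It is shown with the core in capitals, from Hmgcs1 (chr13:119690101-119690350, plus strand), of GRCm38.p6.
Hmgcs1: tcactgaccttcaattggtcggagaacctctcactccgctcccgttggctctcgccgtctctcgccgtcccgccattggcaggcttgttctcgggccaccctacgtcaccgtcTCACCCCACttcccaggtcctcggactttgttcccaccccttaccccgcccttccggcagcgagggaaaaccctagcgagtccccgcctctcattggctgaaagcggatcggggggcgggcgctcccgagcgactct

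**Figure D4:**
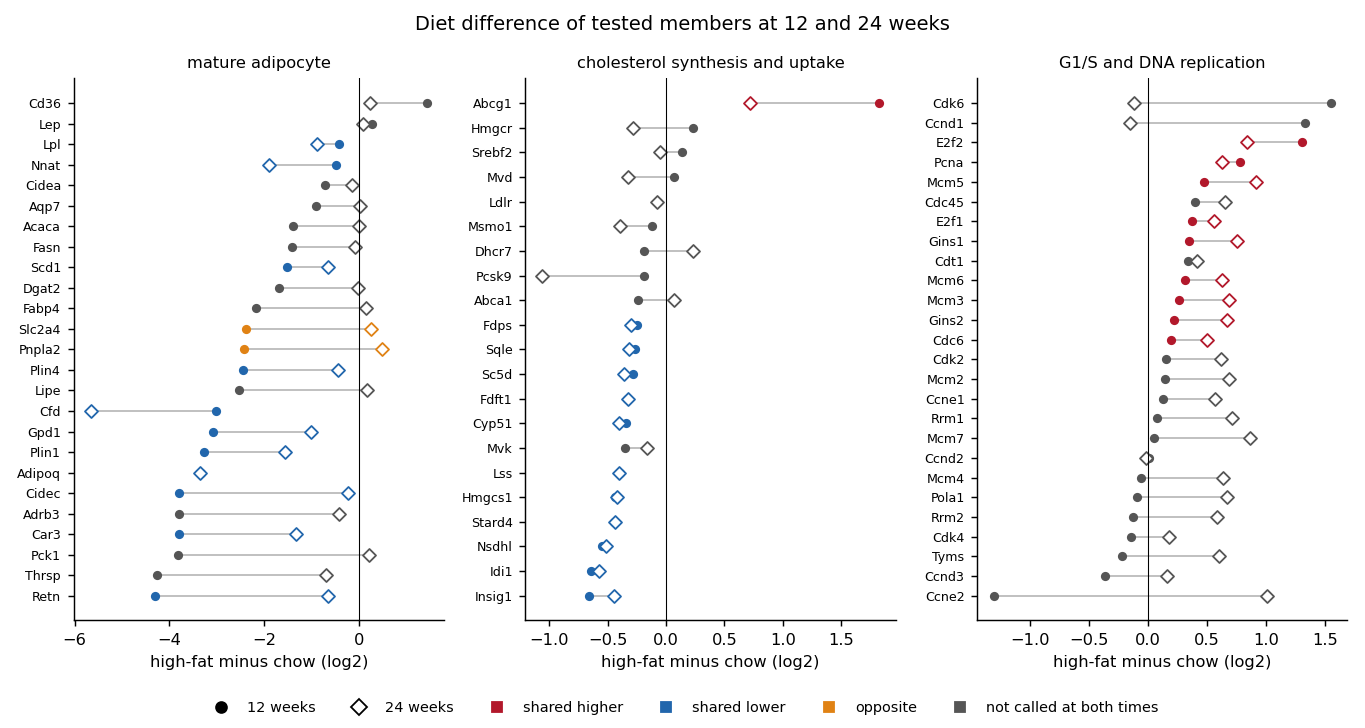
Diet differences (log2, high-fat minus chow) of tested members of 3 lists at 12 weeks (filled circles) and 24 weeks (open diamonds), coloured by class. Adipocyte genes lie far to the left at 12 weeks (median -2.44) and closer to 0 at 24 weeks (median -0.23), shared lower sterol genes have both marks close together left of 0, and 9 replication genes lie right of 0 at both times.

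Matrix glycoproteins and proteoglycans fell in part. Of 28 tested, 12 were shared lower, 6 were called at neither time, and 1, tenascin C (Tnc), was shared higher (0.73 and 0.63), with counts of 8 to 12 without 1 array. Lum, the keratan sulfate proteoglycan lumican, had levels of 4.94 and 4.81 in C12, 2.89 and 3.03 in HF12, 3.08 and 2.86 in C24, and 1.05 and 1.11 in HF24. It fell by 1.92 and 1.89 with diet and by 1.89 with time. Dcn, the collagen-binding proteoglycan decorin, fell by 0.79 and 0.70, and Spon1, a secreted matrix protein, by 1.47 and 0.78. Acan, the cartilage proteoglycan aggrecan, was well above background on the chow arrays alone and fell at least 2.55-fold at 12 weeks and at least 1.02-fold at 24 weeks. Of 22 collagens 3 were shared lower, 1 shared higher and 3 opposite, beside 6.13%, 5.03% and 3.99% of all genes. Another 11 were called at neither time. The lower count was 0 when C12 replicate 1 or either HF12 array was left out and 0 without the filter on dim probes.

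Among 24 stromal and progenitor surface markers 6 were shared lower and 1, Thy1, was shared higher (0.22 and 0.23), a call that held without C24 replicate 1 but not without any 1 of the other arrays. Those classes held 6.13% and 5.03% of all genes. Mme (CD10), a peptidase of adipose progenitors, had levels of 0.08 and 0.00 in C12, -1.01 and -0.92 in HF12, -1.21 and -1.1 in C24, and -2.17 and -2.18 in HF24. It fell by 1.01 and 1.02. Pdgfra, the receptor that marks fibroblastic progenitors, fell by 0.57 and 0.53. Dpp4 and Cd55, which mark an early progenitor of the interstitium, fell by 2.06 and 0.71 and by 1.76 and 1.19, though a second probe of each was called at 12 weeks only.

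Of 34 TGF-beta and BMP pathway genes 9 were shared lower, 2 shared higher and 4 opposite, beside 6.13%, 5.03% and 3.99% of all genes. Chrdl1, a secreted BMP antagonist, had levels of 2.70 and 2.48 in C12, 0.56 and 0.67 in HF12, 0.97 and 0.91 in C24, and -1.27 and -1.33 in HF24, and fell by 1.97 and 2.24. Ltbp1, which stores latent TGF-beta in the matrix, fell by 1.86 and 0.85. Those that rose were Tgfbi, a matrix protein induced by TGF-beta and also made by macrophages (2.16 and 1.00), and Inhbb, the activin beta B subunit (0.71 and 0.81).

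Of 34 secreted growth and angiogenic factors 13 were shared lower and 1, Pdgfb, shared higher (0.46 and 0.37), but only C24 replicate 2 could be left out without losing the call of Pdgfb. Those classes held 6.13% and 5.03% of all genes. Vegfd, a lymphangiogenic factor, fell by 0.68 and by 2.11, and Fgf2, a mitogen of stromal cells, by 0.62 and 0.73. For the lower genes, leaving out HF12 replicate 1 gave a count of 6, C12 replicate 1 of 7 and HF12 replicate 2 of 8. Of 34 Wnt pathway genes 8 were shared lower, a count of 5 without HF12 replicate 1 and 5 without HF24 replicate 1. Fzd4, a Wnt receptor, fell by 0.81 and 0.52, and Nkd2, an intracellular inhibitor, by 0.77 and 0.59, so both a receptor and an inhibitor fell.

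Cytokine and chemokine genes moved both ways. Of 27 chemokine ligands 3 were shared higher, 5 shared lower and 7 opposite, beside 5.03%, 6.13% and 3.99% of all genes. Cxcl13, which draws B cells, had levels of -0.76 and -0.88 in C12, -3.39 and -3.39 in HF12, -2.18 and -2.19 in C24, and -6.46 and -7.01 in HF24, where it was not well above background. It fell by 2.58 at 12 weeks and at least 6.29-fold at 24 weeks. Cxcl16, a transmembrane chemokine and scavenger receptor, rose by 0.85 and 0.95.

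Of 22 inflammatory cytokines and receptors 4 were shared higher and 5 shared lower, against 5.03% and 6.13% of all genes. The lower count was 3 without HF12 replicate 1. Il33, an alarmin that stromal cells of fat make, had levels of 2.81 and 2.57 in C12, 1.14 and 1.2 in HF12, 2.59 and 2.46 in C24, and 0.79 and 0.67 in HF24, and fell by 1.52 and 1.80. Both chow groups lay above both high-fat groups. Il1r2, the decoy receptor of interleukin 1, fell by 1.97 and 1.77. Il6 fell by 0.49 and 0.76, a shared call lost without HF12 replicate 1 (adjusted p = 0.0673). Those that rose were Tnf (3.03 and 0.72), Osm (3.10 and 0.73), Il10ra and Arg1, an arginase of alternatively activated macrophages. Arg1 was at least 7.88-fold higher at 24 weeks and was well above background in HF24 alone, so its call at 12 weeks compares background signals.

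Proliferation genes rose in part. Of 26 G1/S and DNA replication genes 9 were shared higher, against 5.03% of all genes, with median differences of 0.17 and 0.63. Pcna, the replication clamp, had levels of 4.67 and 4.65 in C12, 5.42 and 5.46 in HF12, 4.76 and 4.87 in C24, and 5.44 and 5.44 in HF24. The high-fat groups of both times lay together and above both chow groups, and Pcna rose by 0.78 and 0.63. E2f2, an S phase transcription factor, rose by 1.31 and 0.84, and Mcm5, a helicase subunit, by 0.48 and 0.91, the latter not called at 12 weeks without HF12 replicate 1 (adjusted p = 0.0587). The count of 9 was 3 without either HF12 array and 5 without either C12 or either HF24 array.

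Of 25 mitotic genes all were called higher at 24 weeks, against 15.1% of all genes, and 7 of them were shared higher, against 5.03%. Cenpf (-0.34 and 0.86), Kif20a (-0.34 and 0.86) and Ttk (-0.22 and 0.80) were opposite, a class of 3.99% of all genes. Mki67, the marker of cycling cells, rose by 0.37 and 0.94. The 3 opposite genes lost that class without C12 replicate 1 and without either HF12 array, Kif20a also without C12 replicate 2, and Ttk without any 1 of the 8 arrays. With the replicate block Ttk and Kif20a lost it too, and a second probe of Ttk was called at 24 weeks only (0.002 and 0.853). The count of 7 was 2 without C12 replicate 1 or either HF12 array and 4 without C12 replicate 2. Of the cell cycle inhibitors, Cdkn1a (p21) was called at 12 weeks only (0.36, and -0.13 at 24 weeks) and Cdkn2a (p16 and p19Arf) at 24 weeks only (0.29 at 12 weeks and -0.83 at 24 weeks). Cdkn1a lost this class without C12 replicate 1, either HF12 array, either HF24 array or the filter on dim probes. Cdkn2a lost its class with an intensity trend and among probes well above background on all arrays. A second probe of Cdkn1a was called at 24 weeks only (0.16 and -1.18), and one of Cdkn2a in opposite directions (0.98 and -1.12).

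Some contractile genes rose slightly. Of 15 smooth muscle and myofibroblast genes 6 were shared higher, against 5.03% of all genes, and 7 were called at neither time. The shared count was 3 without HF12 replicate 2. Tagln (transgelin) had levels of 7.14 and 7.21 in C12, 7.57 and 7.61 in HF12, 7.76 and 7.78 in C24, and 8.23 and 8.19 in HF24, a rise of 0.41 and 0.44. Actg2, an actin of smooth muscle, rose by 0.47 and 0.41. Acta2, alpha smooth muscle actin, differed by 0.33 and 0.56, a shared call that held without C12 replicate 2 but not without any 1 of the other arrays (largest adjusted p 0.143).

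Of 24 hypoxia and glycolysis genes 9 were shared higher, 2 shared lower and 2 opposite, beside 5.03%, 6.13% and 3.99% of all genes. Ankrd37, a target of hypoxia-inducible factor, rose by 0.77 and 0.75 and Pgam1, the glycolytic phosphoglycerate mutase, by 0.47 and 0.42. Adm, adrenomedullin, another such target, went the other way, with levels of 4.30 and 4.40 in C12, 3.38 and 3.35 in HF12, 4.32 and 4.42 in C24, and 3.16 and 3.20 in HF24, and fell by 0.99 and 1.19. The hexokinase Hk2 was shared lower as well (-0.32 and -0.37), but the lower count was 1 when either C12 array, either HF12 array, C24 replicate 1 or HF24 replicate 1 was left out. The count of 9 was 3 without either HF24 array and 4 without either C24 or either HF12 array.

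Of 23 genes of the cytochrome P450 and retinoid list 9 were shared lower, 1 shared higher and 1 opposite. Those classes held 6.13%, 5.03% and 3.99% of all genes. The lower count was 4 without either C24 array and 5 without either HF24 array. Adh1, an alcohol and retinol dehydrogenase, fell by 1.51 and 1.60 and Aldh1a1, which makes retinoic acid, by 1.1 and 1.60. Hp, haptoglobin, a haemoglobin-binding protein that fat also makes, had levels of 7.0 and 6.96 in C12, 5.37 and 5.45 in HF12, 4.36 and 4.30 in C24, and 2.67 and 2.69 in HF24, and fell by 1.57 and 1.65. Steap4, a metalloreductase of fat, fell by 2.26 and 2.09, with 1 of its HF24 arrays not well above background, and Clec3b (tetranectin), a plasminogen-binding protein, by 2.12 and 3.21. Imprinted growth regulators gave 6 of 17 shared lower, among them the transcription factor Plagl1 (-0.79 and -1.31, with a second probe called at 12 weeks only), and 4 opposite, among them Mest (-1.01 and 0.91) and the RNA Meg3 (0.48 and -1.37), whose second probe was called at 24 weeks only (-0.021 and -1.82).

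**Figure D5:**
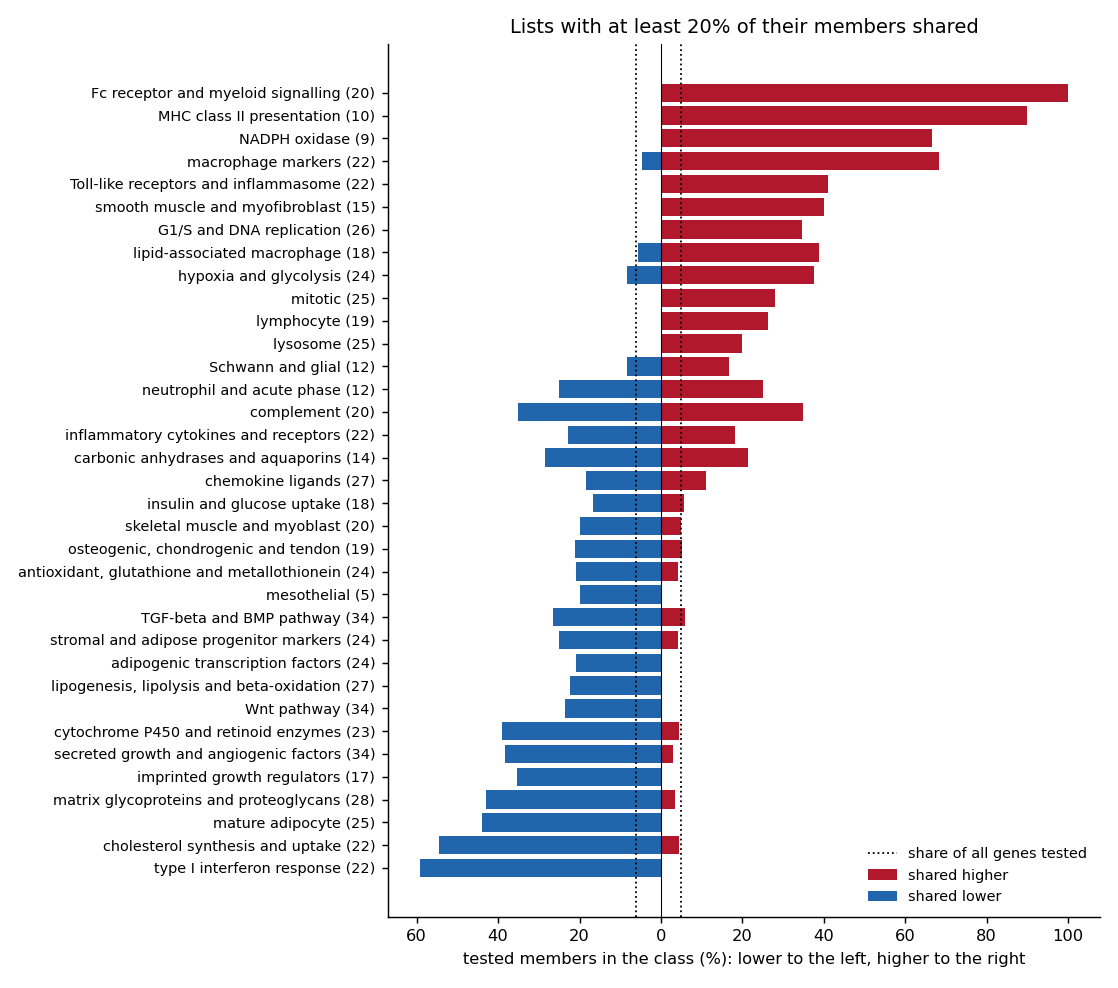
Share of the tested members of each list (number tested in brackets) that was shared higher (right) or shared lower (left), for the lists with at least 20% of members shared. Dotted lines mark the shares over all genes, 5.03% and 6.13%; Fc receptor and myeloid signalling reaches 100% to the right and the type I interferon response has the longest bar to the left, 13 of 22.

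Apoc2 and Apoc1, apolipoproteins that activate and inhibit lipoprotein processing and that are neighbours in the genome, moved apart. Apoc2 had levels of -2.66 and -2.57 in C12, -0.19 and -0.19 in HF12, -2.28 and -2.37 in C24, and 0.15 and 0.04 in HF24, a rise of 2.42 at both times, and a second probe gave 2.88 and 2.99. Apoc1, chosen after its values were seen, fell by 2.75 and by 1.68. Among 16706 pairs of neighbouring tested genes, 163 had both shared higher (0.976%), 92 both shared lower (0.551%) and 101 one of each (0.605%).

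A second kept probe existed for 445 shared higher genes, of which 390 (87.6%) had the same sign at both times and 211 (47.4%) the same call, and for 298 shared lower genes, of which 240 (80.5%) had the same sign and 121 (40.6%) the same call. Gdpd2, a glycerophosphodiesterase with the largest interaction among those named as shared lower, fell by 0.86 and 3.80. Some calls rested on signal near background. At 24 weeks 29 shared higher and 64 shared lower genes were not well above background on any array of that time, and at 12 weeks 4 and 2. Of 14825 genes called at neither time, 1135 were not well above background on any 24-week array. No chow array was well above background in 51 shared higher genes, and no high-fat array in 30 shared lower genes. Those genes passed the filter only through the diet where they were high.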

How the data were processed

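Total RNA was measured on 8 one-colour Agilent mouse arrays. Per the file headers, the deposited processed intensity is background-subtracted and detrended within an array by Agilent Feature Extraction 11.0.1.1; the deposited median and background intensities are unprocessed. The normexp alternative used the median signal. The authors also deposited a table of log2 values, which differs from log2 processed intensity by a constant on each array (-9.99 to -9.79), its rule not given in the sources used here.

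Control and outlier-flagged spots were left out (192 of 56605 probes removed), spots of a probe were averaged, and log2 processed intensity was taken relative to the array's 75th percentile. Probes well above background on both arrays of a group were kept (37649), and the brightest per gene was tested (29584 genes, 16728 with a symbol). RefSeq tables of GRCm38.p6 gave 1 symbol to 58.3% of probes; the headers name mm9, so no gene coordinates are printed from these tables apart from those of the promoter windows, with their own build. limma 3.58.1 in R 4.3.3 fitted 4 group means (4 residual and 1.9 prior degrees of freedom; two-sided), with contrasts for diet at each time, their mean, their difference (interaction) and time, each adjusted over all genes. On simulated data of 29584 genes, 50 were changed at both times at each size and 29184 were unchanged. The shared call found 10% of genes changed by 0.5 (log2), 72% of those changed by 1, 94% at 2 and 96% at 3. It called 1 of the 29184 unchanged genes. Far fewer genes were changed there than were called on the arrays. Whether these shares hold for the arrays was not tested. Python 3.11.15 with pandas 2.3.3 and matplotlib 3.10.9 read the files and drew the figures.

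The members, the 52 gene lists (14 of cell types) and the tests were chosen with earlier results of these data known. Genes eligible to be named were the 15 shared genes of each direction with the largest smaller difference, up to 5 shared and 3 opposite members of each list, the 10 largest opposite genes, the 6 of each direction with the largest interaction, and Cdkn1a, Cdkn2a, Il6, Pparg and Mki67. Of these 304 genes 97 are named, with preference for those that kept their class without each array; any other gene named was chosen after its values were seen. Some results are not reported here. Alternatives were other normalizations and filters, every kept probe, an intensity trend, an additive model, only the arrays compared, the replicate block, stricter thresholds and leaving out each array. Replicate numbers do not pair the samples.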

Additional observations from a re-analysis of the deposited data

Results flagged for a closer look

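The diet difference of 58 named genes changed in size or sign between 12 and 24 weeks by limma's interaction test (adjusted p under 0.05). Each value here is the difference at 24 weeks minus that at 12 weeks, on the log2 scale.

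Most myeloid genes had a smaller rise at 24 weeks. The interaction was -2.01 for Aif1, -1.72 for Fcrls, -1.45 for Cd72 and -2.79 for Ptprc. In the C1q chains it was -2.38 for C1qa, -2.51 for C1qb and -1.95 for C1qc, and in the receptor C5ar1 -2.43. Fc receptor signalling gave -2.55 for Fcgr1, -2.46 for Ptpn6 and -2.20 for Trem2. The oxidase subunits gave -3.10 for Ncf1, -3.02 for Rac2 and -1.99 for Cybb. For Cx3cr1 the fitted value was -2.0, but no chow array was well above background, so both differences are bounds and no order of their sizes can be read. Itgax gave -1.95, Spp1 -2.09, Cd14 -1.55, Tlr13 -2.18, Casp1 -0.91, Ctss -1.86 and Tgfbi -1.16. The rise of H2-Eb1 (0.66) was larger at 24 weeks. Arg1 had a fitted value of 3.52 and was not well above background on any array at 12 weeks.

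In adipocyte genes the interaction had both signs. The fall was smaller at 24 weeks in Plin1 (1.71), Car3 (2.48) and Scd1 (0.86) and larger in Dlk1 (-0.53). The fitted values were -2.64 for Cfd and -0.63 for Wfdc21, but HF24 was not well above background in either, so no order of sizes can be read there. Pnpla2 (2.92) and Pparg (1.61) changed sign.

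Among stromal genes the fall was smaller at 24 weeks in Spon1 (0.69), Ltbp1 (1.01), Cd55 (0.57), Dpp4 (1.35) and Fzd4 (0.29), and larger in Vegfd (-1.43), Aldh1a1 (-0.49) and Gdpd2 (-2.93). Cxcl13 had a fitted value of -1.97 and was not well above background in HF24. Interferon-induced genes gave -0.47 for Ifit1, 0.51 for Ifi44 and -1.57 for Rsad2, and the targets of interferon gamma 5.74 for Ubd, 5.02 for Cxcl9, 4.19 for Iigp1 and 1.11 for H2-K1. Cell cycle genes gave 0.56 for Mki67, 0.44 for Mcm5, -0.47 for E2f2, 1.2 for Cenpf, 1.2 for Kif20a, 1.03 for Ttk, -0.50 for Cdkn1a and -1.12 for Cdkn2a. The imprinted genes Mest and Meg3 gave 1.91 and -1.85.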

How the results depend on the processing

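Each named gene was followed by its main effect of diet, or by its interaction where it was called in opposite directions. The direction of that value held in all 97 named genes under every alternative that gave one, and its side of the threshold in 95. The named genes were picked with preference for those that kept their class without each array. Their stability without 1 array therefore largely describes that choice. Rac2 lost its call in the additive model, and Cdkn2a without the filter on dim probes, in the additive model and without any of 6 arrays. Main-effect calls numbered 2404 higher and 3131 lower in the additive model, which leaves the interaction in the residual, 2976 and 4413 at an adjusted p under 0.01, and 767 and 841 with a log2 change of at least 1. Without the filter on dim probes the shared calls numbered 954 higher and 1153 lower, opposite calls 645, and shared genes with an interaction call 918. At an adjusted p under 0.01 these were 704, 781, 390 and 657, and with a log2 change of at least 1 they were 207, 170, 59 and 246. With only the arrays compared, so that the times share no estimate of the spread, shared calls numbered 1002 higher and 1327 lower, and opposite calls 700. Without 1 array, main-effect calls ran from 3809 to 5050 higher and from 5476 to 6447 lower, shared calls from 892 to 1440 higher and from 1044 to 1552 lower, opposite calls from 637 to 943, and interaction calls among shared genes from 923 to 1230. The cause was not tested. With the replicate block, shared calls numbered 1212 higher and 1530 lower; deviations of same-numbered arrays correlated between -0.082 and 0.166, so the numbers do not pair the samples. With the 75th percentile taken over the kept probes, chosen after seeing the data, shared calls numbered 1198 higher and 2095 lower. Arg1 lost its shared call with normexp. Acta2 lost its shared call with normexp, quantile normalization, only the arrays compared, the replicate block or no filter on dim probes. Pparg lost its opposite call in the same settings apart from the replicate block. Rsad2, Cenpf, Kif20a and Ttk lost theirs without the filter on dim probes, and all of these but Cenpf with only the arrays compared. Dim probes limit the 24-week values most, since fewer probes were well above background there.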

Other observations

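Of 15 endothelial genes 7 were called in opposite directions, lower at 12 and higher at 24 weeks, and only Vwf, the von Willebrand factor, was shared higher (0.96 and 1.37, log2). Of 20 skeletal muscle genes 18 were called lower at 24 weeks and 4 were shared lower, among them the fast troponins Tnnc2 (-0.60 and -2.41) and Tnnt3 (-0.41 and -2.08); the count was 2 without C12 replicate 1 and 1 without HF12 replicate 1. Of 19 lymphocyte genes 5 were shared higher, among them the cytokine receptor chain Il7r (3.14 and 0.79). Of 24 mitochondrial respiration genes 19 were called lower at 12 weeks, 5 were called in opposite directions and only 1, Cox8b, was shared lower (-1.46 and -2.27). Over all genes 5.03% were shared higher, 6.13% shared lower and 3.99% opposite. Calls lower with the diet were 17.4% of all genes at 12 weeks and 19% at 24 weeks.

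Water and ion handling genes moved both ways. Of 14 carbonic anhydrases and aquaporins 3 were shared higher, among them the glycerol channel Aqp9 (1.40 and 1.69), and 4 shared lower, among them the water channel Aqp1 (-0.73 and -0.61); the lower count was 2 without C24 replicate 1, HF12 replicate 1 or HF12 replicate 2. Of 24 antioxidant genes 5 were shared lower, among them the glutathione transferase Gstt1 (-1.18 and -0.75), and the count was 2 without HF24 replicate 1 or HF24 replicate 2 and 3 without any other array. The genes named here were chosen after their values were seen.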
